A study of Homo sapiens with 18 samples.

Results

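The AP-1 genes FOS, FOSB, FOSL1, FOSL2, JUN, JUNB and JUND, with ATF3 and the small MAF genes MAFF and MAFK, were followed across all 6 groups of an RNA-seq study of VCaP cells. These 10 genes were taken by name from the 22034 genes of the count table, and all 10 were found in it. VCaP is a prostate cancer cell line in which the TMPRSS2:ERG fusion drives the ETS transcription factor ERG. In the first experiment, VCaP-shERG cells, which carry a hairpin against ERG under the inducible pLKO-Tet-on-puro system, were given DMSO or 1 µg/mL doxycycline (Dox), for a time that the labels do not give. In the second, parental VCaP cells were given DMSO or 50 µM PBITE-1, a small molecule made to bind the PNT domain of ERG, for 4, 8 or 12 h. Each group had 3 samples, described as biological replicates, and none was left out. The 3 times of PBITE-1 share the same DMSO samples, whose collection time the labels do not give. No Dox sample of cells without the ERG hairpin and no sample of an inactive analog of PBITE-1 was analysed here, so an effect of Dox itself or of the compound apart from ERG cannot be told apart from an effect through ERG.

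AP-1 is a dimer of basic leucine zipper proteins that binds a short DNA element, the TPA response element (TRE). JUN proteins pair with each other or with FOS proteins, whereas FOS proteins need a JUN partner. FOS, FOSB, JUN and JUNB are classical immediate early genes, which are transcribed within minutes of a growth factor or stress signal, while JUND is expressed more steadily. ATF3, a stress-induced member of the ATF/CREB family, pairs with JUN proteins and binds the related cyclic AMP response element (CRE). MAFF and MAFK are small MAF proteins that lack an activation domain and act mainly with CNC partners such as NRF2 and BACH1.

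Libraries were made from rRNA-depleted total RNA and held between 11308600 and 17483423 counts (median 14099566). At this depth, 3 counts, taken as the floor of detection, were worth between 0.172 and 0.265 CPM (counts scaled to the library total), a limit that covers counting error only. CPM below were scaled by TMM within each experiment. ERG, the target of the hairpin, was at 448 ± 13.7 CPM in VCaP-shERG cells with DMSO and at 164 ± 4.63 CPM with Dox (SD, n = 3 each; log2 fold change -1.44, limma adjusted p = 3.29e-22). ERG mRNA was also lower with PBITE-1, at 180 ± 3.36, 93.8 ± 2.94 and 97.2 ± 7.66 CPM at 4, 8 and 12 h against 289 ± 8.85 CPM in parental cells with DMSO (log2 fold changes -0.68, -1.62 and -1.58, limma adjusted p of 1.67e-16 or less). Luminal prostate markers were abundant in every sample (summed 3114 to 10388 CPM, 9 of 9 in the table). The summed markers of basal, fibroblast, leukocyte and endothelial cells, 3 genes each (KRT5 was not analysed here), each stayed at or below 7.19 CPM in every sample. Within these low levels, COL1A1, PECAM1 and TP63 were called higher and KRT14 and VWF lower at 12 h of PBITE-1, and COL1A1 and VWF higher with Dox, while 5 of the 9 luminal markers were called lower at 12 h. TP63 and PECAM1 were tested only because of their PBITE-1 samples. The part of these in the results below was not tested. As these are bulk samples, a change in RNA per cell and a change in the share of responding cells cannot be told apart.

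PBITE-1 raised 8 of the 10 genes at each of the 3 times, namely FOS, FOSB, FOSL2, JUN, JUNB, JUND, ATF3 and MAFF. MAFK was not raised, and FOSL1 was not detected well enough to be tested. Together the 10 genes took between 0.0124% and 0.0139% of the counts in the DMSO samples. This share was between 0.164% and 0.226% at 4 h, between 0.127% and 0.132% at 8 h, and between 0.151% and 0.164% at 12 h. With Dox, by contrast, the share was 0.0166% to 0.0176% against 0.0117% to 0.0127% in VCaP-shERG cells with DMSO, and MAFF alone was called higher. These shares are of library totals without TMM scaling, and the TMM factors were 1.09 to 1.10 with Dox against 0.91 to 0.92 in VCaP-shERG cells with DMSO. A gene was called where its log2 fold change exceeded 1 in size and the adjusted p of limma (Benjamini-Hochberg, over 14164 tested genes) was below 0.05. By that rule, 7.28% of all tested genes were called higher and 2.99% lower at 4 h, 14.9% and 8.86% at 8 h, 17.1% and 15.4% at 12 h, and 12% and 7.19% with Dox. No member was called lower in any of these 4 comparisons. The median log2 fold change over the 9 tested members was 3.94, 3.55 and 3.83 at 4, 8 and 12 h and -0.00 with Dox, while the median over all tested genes lay between -0.02 and 0.02. FOSB passed the filter on low counts only through the PBITE-1 samples, so these counts and medians are descriptions. Over the 8 other tested members, 7 were called higher at each time of PBITE-1 and 1 with Dox, and the medians were 3.41, 3.37, 3.53 and -0.18.

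**Figure D1:**
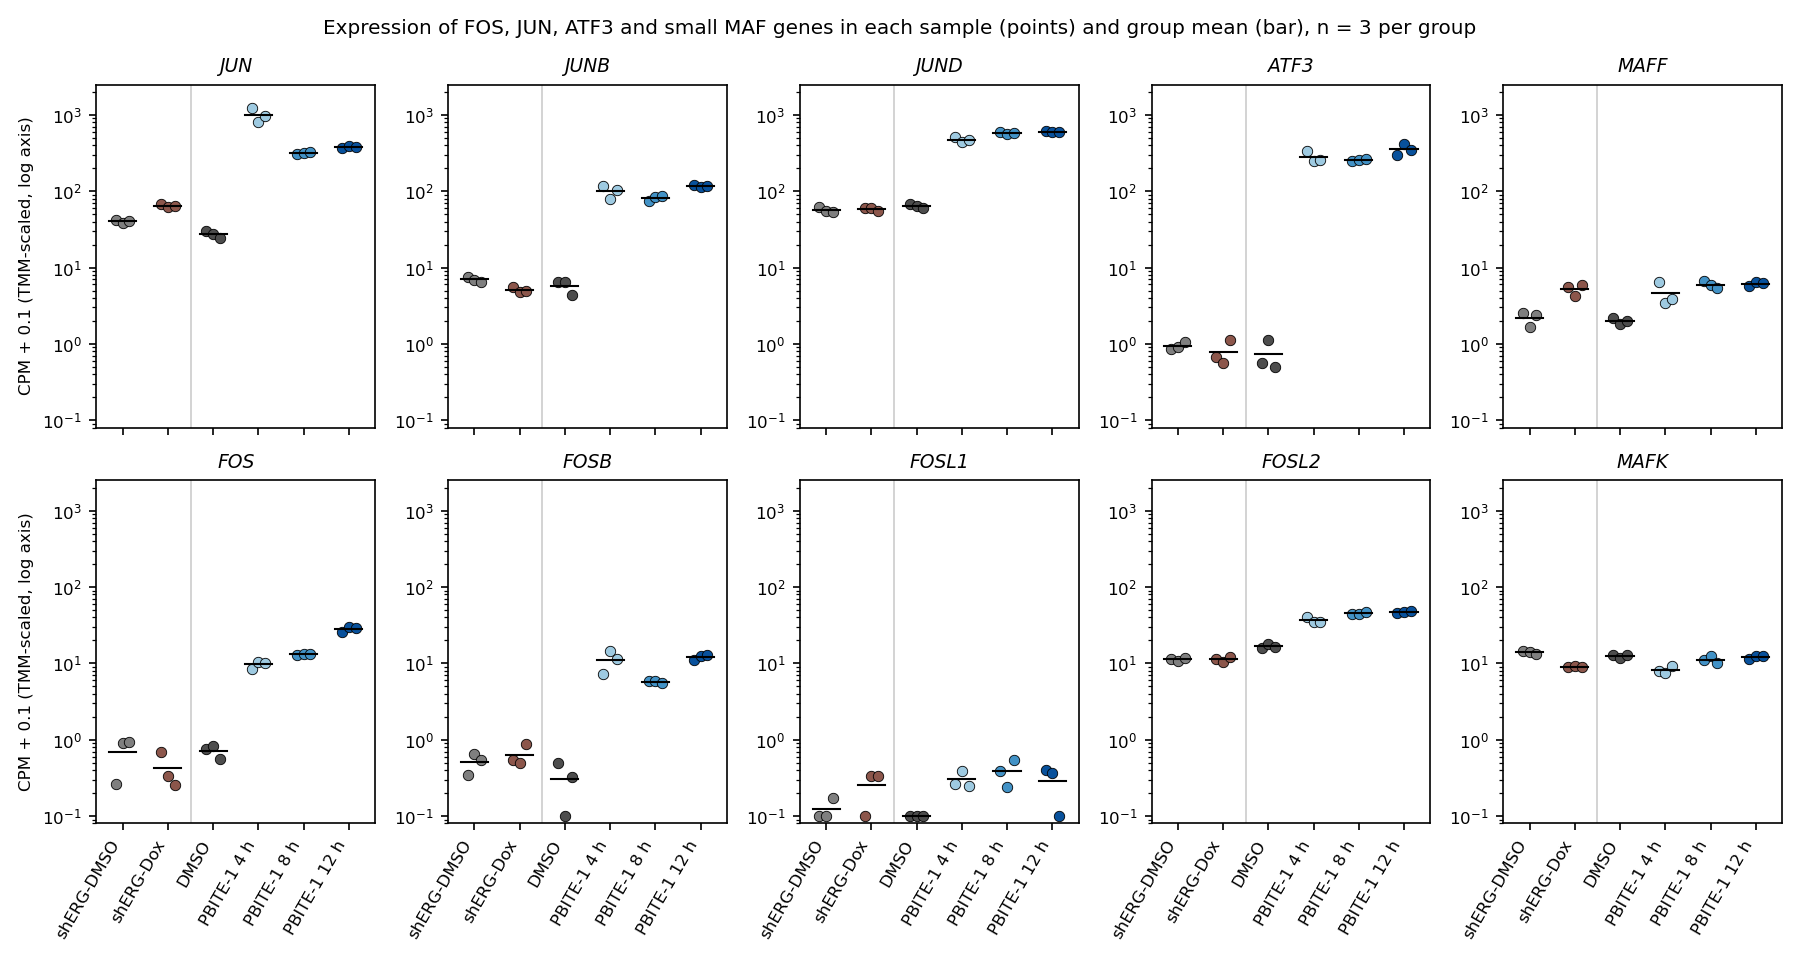
CPM (TMM-scaled, 0.1 added so that zeros can be drawn on the log axis) of the 10 genes in each of the 18 samples, with the group mean as a bar. All samples of all 3 PBITE-1 groups lie above the 3 DMSO samples for JUN, JUNB, JUND, ATF3, MAFF, FOS, FOSB and FOSL2. For MAFK the 4 h samples lie below the DMSO samples, and FOSL1 has at most 5 counts in any sample.

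JUN (ENSG00000177606; chromosome 1, 58780788 to 58784327, minus strand, GRCh38), the most potent activator of the 3 JUN proteins, showed the widest swing over time. It was at 29.6, 27.5 and 24.3 CPM in the DMSO samples and at 1241, 816 and 974 CPM after 4 h of PBITE-1. At 8 h the samples held 309, 320 and 321 CPM, and at 12 h 369, 395 and 384 CPM. Every 4 h sample was thus above every later sample, and every treated sample was above every DMSO sample. The log2 fold change against DMSO was 5.20 (SE 0.12, limma adjusted p = 1.76e-30) at 4 h, 3.55 (SE 0.13) at 8 h and 3.83 (SE 0.13) at 12 h. The drop from 4 to 8 h was -1.65 (SE 0.07, limma adjusted p = 6.3e-21). From 8 to 12 h JUN differed by 0.27 (SE 0.08, limma adjusted p = 0.0027), past the p threshold but under the fold limit. It was not past the p threshold with DESeq2 (adjusted p = 0.0589) or without a filter on low counts (0.134).

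JUND (ENSG00000130522; chromosome 19, 18279760 to 18281622, minus strand) was the most abundant JUN gene in DMSO, with 67.7, 64.0 and 60.9 CPM. It held 511, 442 and 463 CPM at 4 h, 599, 557 and 586 CPM at 8 h and 610, 604 and 594 CPM at 12 h. The samples of each time were close together, and the log2 fold changes of 2.88, 3.18 and 3.23 had SEs of 0.05 each. JUND was thus higher at 8 h than at 4 h by 0.30 (SE 0.04, limma adjusted p = 4.07e-08), and its values at 8 and 12 h overlapped.

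JUNB (ENSG00000171223; chromosome 19, 12791496 to 12793315, plus strand), which often opposes JUN at shared promoters, rose from 6.31, 6.41 and 4.22 CPM to 117, 78.3 and 102 CPM at 4 h. It was at 73.3, 84.3 and 86.1 CPM at 8 h and at 122, 115 and 117 CPM at 12 h. Against DMSO these were log2 fold changes of 4.14, 3.86 and 4.41, with SEs of 0.19, 0.19 and 0.18. The 4 and 8 h samples overlapped, and the difference of -0.28 between them (limma adjusted p = 0.00432) was not past the threshold with DESeq2 (adjusted p = 0.118), without a filter on low counts (0.0753), without replicate 1 at 4 h (0.109) or without replicate 1 at 8 h (0.0726). The rise of 0.55 from 8 to 12 h (SE 0.08, limma adjusted p = 1.33e-07) separated the samples of the 2 times. A stretch of 259 bp, 14.2% of the exon sequence of JUNB, overlaps HOOK2 on the other strand, and whether the counting used strand is not given in the sources used here. HOOK2 held 22.2 ± 0.952 CPM in DMSO against 22.7 ± 1.86 CPM at 4 h (mean ± SD of 3 samples, limma adjusted p = 0.862). It was higher at 8 h by 0.21 (adjusted p = 0.0375), at 12 h by 0.42 (adjusted p = 4.77e-05) and with Dox by 0.39 (adjusted p = 0.00024) on the log2 scale of limma, and its part in the values of JUNB was not tested.

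FOS (ENSG00000170345; chromosome 14, 75278774 to 75282230, plus strand), the classical partner of JUN, was close to the floor without PBITE-1 and kept rising with it. The DMSO samples held 0.657, 0.732 and 0.457 CPM, from 8 to 12 counts. There were 8.41, 10.5 and 9.98 CPM at 4 h, 12.7, 13.1 and 13.3 CPM at 8 h, and 26.0, 30.1 and 28.8 CPM at 12 h. The 3 times did not overlap, and each was above the one before. Log2 fold changes against DMSO were 3.94, 4.37 and 5.49, with SEs of 0.33, 0.33 and 0.32. The step from 8 to 12 h was 1.12 (SE 0.10, limma adjusted p = 8.99e-13), and that from 4 to 8 h was 0.43 (SE 0.13, limma adjusted p = 0.0039).

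FOSB (ENSG00000125740; chromosome 19, 45467995 to 45475179, plus strand) had 6, 0 and 4 counts in the DMSO samples and between 60 and 198 counts in every PBITE-1 sample. Its level was 7.26, 14.6 and 11.2 CPM at 4 h, 5.83, 5.78 and 5.38 CPM at 8 h and 10.9, 12.4 and 12.9 CPM at 12 h. FOSB therefore fell between 4 and 8 h in all samples and was higher again at 12 h. The difference was -0.91 (SE 0.20, limma adjusted p = 0.000153) for the first step, under the fold limit, and 1.08 (SE 0.19, limma adjusted p = 5.17e-06) for the second. Against DMSO the log2 fold changes were 6.18, 5.27 and 6.35 at the 3 times, with SEs of 0.70, 0.70 and 0.69. Without DMSO replicate 2, the sample at 0 counts, the value at 4 h was 5.04, and without DMSO replicate 1 it was 6.89.

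FOSL2 (ENSG00000075426; chromosome 2, 28392448 to 28417312, plus strand), which encodes FRA-2 and has no strong activation domain, was the only FOS gene well above the floor in DMSO. It rose from 15.8, 18.1 and 16.2 CPM to 41.0, 34.9 and 34.4 CPM at 4 h, 44.3, 44.5 and 47.3 CPM at 8 h and 45.8, 47.2 and 48.1 CPM at 12 h. In log2 terms it rose by 1.13, 1.44 and 1.496 (SEs 0.09, 0.08 and 0.08), the smallest changes of the FOS and JUN genes tested. FOSL1 (ENSG00000175592), which encodes FRA-1, had at most 5 counts in any sample, with 0 in each DMSO sample and 0 to 5 in the PBITE-1 samples. It held 2, 4 and 2 counts at 4 h, 5, 2 and 5 at 8 h and 4, 4 and 0 at 12 h. Every sample at 4 and 8 h thus held more counts than any DMSO sample. The level was at or near the floor in all groups, so no fold change was given, and whether FOSL1 rose was not tested.

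ATF3 (ENSG00000162772; chromosome 1, 212565334 to 212620777, plus strand) changed most. The DMSO samples held 7, 17 and 7 counts, or 0.4599, 1.04 and 0.400 CPM. At 4 h the level was 334, 248 and 254 CPM, at 8 h 249, 254 and 263 CPM, and at 12 h 300.4, 421 and 352 CPM. The log2 fold change was 8.82 (SE 0.63, limma adjusted p = 5.84e-15) at 4 h, 8.71 (SE 0.63) at 8 h and 9.19 (SE 0.63) at 12 h. Among the 14164 tested genes it ranked 2, 2 and 1 by log2 fold change at the 3 times. The 4 and 8 h samples overlapped (difference -0.11, 95% CI -0.27 to 0.04, limma adjusted p = 0.226), and the 12 h samples were above the 8 h samples by 0.48 (SE 0.07, limma adjusted p = 6.57e-07).

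MAFF (ENSG00000185022; chromosome 22, 38200767 to 38216511, plus strand), the stress-inducible small MAF, rose from 2.10, 1.71 and 1.88 CPM to 6.43, 3.32 and 3.77 CPM at 4 h, 6.59, 5.78 and 5.29 CPM at 8 h and 5.58, 6.34 and 6.12 CPM at 12 h. These correspond to 1.16, 1.64 and 1.66 in log2 fold change, with SEs of 0.26, 0.24 and 0.24. At 4 h the call depends on replicate 1, without which the value was 0.90, under the fold limit. MAFK (ENSG00000198517; chromosome 7, 1530714 to 1543043, plus strand) moved the other way, from 12.9, 11.5 and 12.6 CPM in DMSO to 7.75, 7.31 and 9.02 CPM at 4 h. The log2 difference of -0.62 (SE 0.13, limma adjusted p = 0.000104) was under the fold limit. At 8 h MAFK held 10.97, 12.3 and 10.0 CPM, and at 12 h 11.3, 12.4 and 12.3 CPM, and both times overlapped DMSO (limma adjusted p = 0.258 and 0.785). Exon sequence of MAFK is shared over 809 bp (18.2%) with TMEM184A on the other strand. TMEM184A fell from 7.37 ± 0.905 CPM in DMSO to 0.769 ± 0.476 CPM at 12 h (SD, n = 3 each; log2 fold change -3.34, limma adjusted p = 5.5e-11), and its part in the values of MAFK was not tested.

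**Figure D2:**
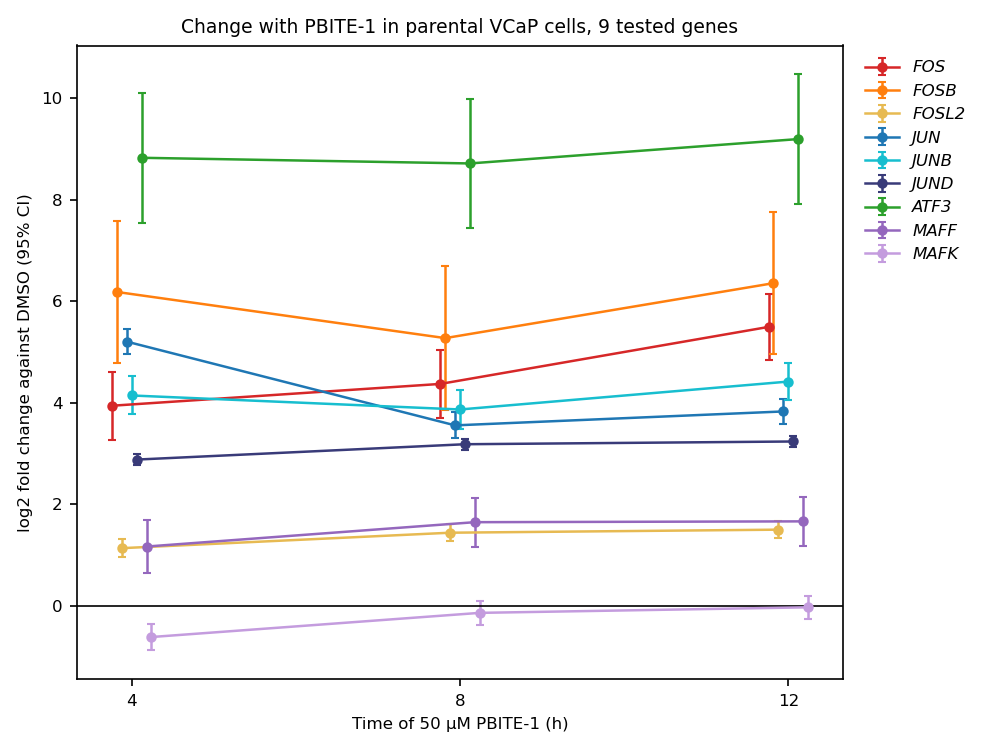
Log2 fold change against DMSO (y axis, with 95% confidence interval from limma) after 4, 8 and 12 h of 50 µM PBITE-1 (x axis; points shifted sideways for legibility) for the 9 tested genes. JUN falls from 5.20 to 3.55 between 4 and 8 h, FOS climbs from 3.94 to 5.49 over the 3 times, and ATF3 stays between 8.71 and 9.19.

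The members thus differed in when they were highest. JUN was highest at 4 h, FOS at 12 h, and the FOSB samples at 4 and 12 h overlapped, with lower values between them. Of the 9 members tested, 1 (JUN) was called lower and 0 higher from 4 to 8 h, where 2.22% of all tested genes were called lower and 4.43% higher. From 8 to 12 h, 2 (FOS and FOSB) were called higher and 0 lower, where 3.48% of tested genes were called higher and 6.59% lower. JUND, FOSL2 and MAFF did not pass the p threshold between 8 and 12 h. Their differences were 0.05 (95% CI -0.02 to 0.13), 0.06 (95% CI -0.07 to 0.19) and 0.02 (95% CI -0.34 to 0.37). With only the compared groups fitted, JUND passed the p threshold (0.086, adjusted p = 0.0235). The 4 h samples were uneven: replicate 1 was highest for JUN, JUNB, JUND, FOSL2, ATF3 and MAFF and lowest for FOS and FOSB. Without it, the difference of FOSB between 4 and 8 h was -1.16, which is past the fold limit, and that of JUN was -1.49.

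To compare levels between genes, counts were divided by exon length, in CPM per kb. The summed level of the 10 genes was 51.1 ± 3.23 CPM per kb in DMSO and, over the 3 times of PBITE-1, 675 ± 101, 524 ± 9.53 and 606 ± 16.8 (SD, n = 3 per group). JUN genes made up most of it, with 45.2 ± 3.15 CPM per kb in DMSO and 593 ± 90.1 at 4 h, against 2.56 ± 0.167 and 10.2 ± 0.623 for the FOS genes. FOS transcripts therefore stayed far below JUN transcripts in every group, and the FOS genes reached 17.6 ± 0.914 CPM per kb at 12 h, when the JUN genes were at 496 ± 4.30. With Dox the summed level of the 10 genes was 57.3 ± 2.29 CPM per kb, against 51.1 ± 2.70 in VCaP-shERG cells with DMSO (SD, n = 3 each).

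Within the JUN genes, JUND held 76.3 ± 1.56% of the level per length in DMSO and JUN 16.9 ± 0.482% (SD, n = 3). At 4 h JUN held 47.8 ± 2.88% and JUND 43.0 ± 3.33%, and their samples overlapped in level. At 8 h JUND was back at 69.9 ± 1.52% and JUN at 20.1 ± 0.646%, with 65.2 ± 0.433% and 21.8 ± 0.771% at 12 h. JUNB rose from 6.82 ± 1.13% in DMSO to 13.1 ± 0.406% at 12 h. Among the FOS genes, FOSL2 held 91.1 ± 1.90% in DMSO and 37.4 ± 1.29% at 12 h, while FOS went from 7.39 ± 1.41% to 49.6 ± 1.22%. FOSB was highest at 4 h, with 19.2 ± 5.40%. ATF3 went from 0.306 ± 0.167% of the 10 genes in DMSO to 10.2 ± 0.513%, 12.1 ± 0.275% and 14.6 ± 2.07% at the 3 times. These shares are descriptions of mRNA and do not measure which dimers were formed.

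**Figure D3:**
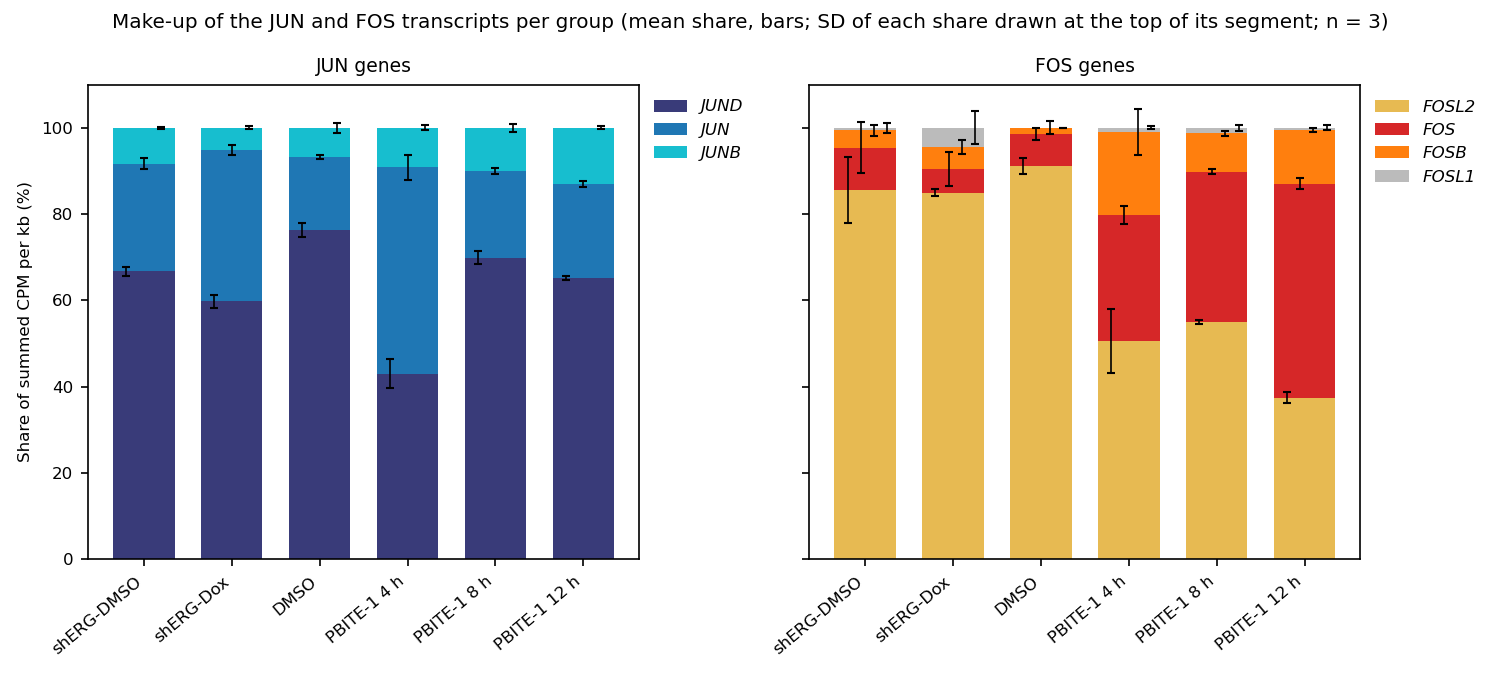
Share of each gene (y axis, percent) in the summed CPM per kb of the 3 JUN genes (left) and the 4 FOS genes (right) in the 6 groups, as the mean of 3 samples, with the SD of each share at the top of its segment. JUN takes 47.8% of the JUN genes at 4 h against 16.9% in DMSO, and FOS takes 49.6% of the FOS genes at 12 h against 7.39% in DMSO.

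Promoter windows of JUN, ATF3, JUND and FOS are shown because all of these genes rose with PBITE-1 but differed in their course over time. Windows of 250 bases before and 50 after the start of transcription were taken from RefSeq on GRCh38.p14, and 8 of the 10 genes had a window (none for FOSL1 and MAFK). Capitals mark TGACATCA in JUN and ATF3, the CRE TGACGTCA and a CRE 6-base core in JUND, and a CRE 6-base core in FOS, each on either strand.
JUN (chr1:58783998-58784297, minus strand): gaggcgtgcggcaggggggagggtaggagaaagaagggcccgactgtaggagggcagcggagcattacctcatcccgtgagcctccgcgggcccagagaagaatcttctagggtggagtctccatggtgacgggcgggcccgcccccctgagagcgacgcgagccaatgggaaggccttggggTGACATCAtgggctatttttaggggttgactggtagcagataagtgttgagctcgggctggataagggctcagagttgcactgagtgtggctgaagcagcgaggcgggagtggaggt
ATF3 (chr1:212565157-212565456, plus strand, the upstream of 2 windows): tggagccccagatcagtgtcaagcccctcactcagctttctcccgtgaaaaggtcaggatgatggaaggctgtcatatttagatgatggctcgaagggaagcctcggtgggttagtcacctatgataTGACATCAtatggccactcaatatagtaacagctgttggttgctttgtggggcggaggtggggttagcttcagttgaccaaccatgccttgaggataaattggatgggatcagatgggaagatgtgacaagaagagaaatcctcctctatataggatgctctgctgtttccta
JUND (chr19:18281573-18281872, minus strand): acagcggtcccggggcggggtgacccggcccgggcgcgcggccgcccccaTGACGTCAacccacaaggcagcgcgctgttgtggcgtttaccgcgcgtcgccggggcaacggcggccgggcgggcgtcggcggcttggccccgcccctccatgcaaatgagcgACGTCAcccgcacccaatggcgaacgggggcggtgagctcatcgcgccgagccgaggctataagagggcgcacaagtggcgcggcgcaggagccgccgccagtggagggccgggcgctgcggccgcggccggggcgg
FOS (chr14:75278578-75278877, plus strand): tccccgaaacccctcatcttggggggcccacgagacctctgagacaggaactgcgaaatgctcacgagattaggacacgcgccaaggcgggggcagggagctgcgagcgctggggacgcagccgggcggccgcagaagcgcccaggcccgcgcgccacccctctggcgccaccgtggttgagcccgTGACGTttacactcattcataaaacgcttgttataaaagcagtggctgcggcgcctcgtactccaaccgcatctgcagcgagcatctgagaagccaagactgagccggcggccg

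TGACATCA or its reverse complement began 67 bases before the start in JUN and 123 bases before it in ATF3, and it was found in 1.89% of the 19770 promoter windows of the table. The CRE TGACGTCA was found in JUND, 200 bases before the start, and in MAFF, 54 bases before it, against 2.40% of all windows. The TRE TGACTCA occurred in FOSL2 alone, at position 5 counted from the start, against 3.88% of all windows. The CRE 6-base core TGACGT or ACGTCA, which every CRE also contains, was present in FOS, FOSB, FOSL2, JUND and MAFF, against 9.30% of all windows. A CArG box, the element bound by SRF, was in none of the members' windows, against 1.23% of all windows. ATF3 and MAFF have 2 windows each, and counted per gene (13760 genes) the shares were higher. They were 2.56% for TGACATCA, 3.26% for the CRE, 5.2% for the TRE, 12.4% for the 6-base core and 1.7% for the CArG box. Of the 8 genes with a window, JUNB held none of these elements. TGACATCA and the 6-base core were searched after the sequences had been read. A match describes the letters of the window and not binding. Gene-level counts do not show whether either of the 2 RefSeq starts of ATF3 was used, and a start outside both windows was not searched.

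The response to ERG knockdown was compared with that to PBITE-1, since the compound was made against the protein that the hairpin removes. With Dox, MAFF rose from 2.41, 1.56 and 2.32 to 5.52, 4.12 and 5.74 CPM, which is 1.31 in log2 fold change (SE 0.25, limma adjusted p = 4.13e-05), with no overlap between the samples. JUN went from 41.5, 38.01 and 41.0 to 68.5, 62.6 and 63.4 CPM. The log2 difference of 0.70 (SE 0.06, limma adjusted p = 1.73e-10) was past the p threshold and under the fold limit, and ranked 2713 of 14164. MAFK was lower in all Dox samples, at 8.87, 9.09 and 8.99 against 14.5, 13.9 and 13.1 CPM (log2 fold change -0.62, SE 0.12, limma adjusted p = 4.82e-05), likewise under the fold limit. For JUNB, at 5.52, 4.66 and 4.81 against 7.48, 6.83 and 6.44 CPM, the difference of -0.46 (limma adjusted p = 0.016) was not past the threshold with upper-quartile scaling (-0.30, adjusted p = 0.108), on library size only (-0.20, 0.282), with all 18 samples in a single fit (-0.46, 0.115) or without Dox replicate 2 (-0.41, 0.0632).

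The other tested members did not pass with Dox. JUND differed by 0.05 (95% CI -0.08 to 0.18) and FOSL2 by -0.00 (95% CI -0.25 to 0.24). FOS, FOSB and ATF3 were near the floor in both VCaP-shERG groups, with 2 to 13 counts per sample, so that their intervals were wide. The log2 fold change was -0.77 (95% CI -2.07 to 0.52) for FOS, 0.31 (95% CI -0.76 to 1.38) for FOSB and -0.35 (95% CI -1.25 to 0.54) for ATF3. Each of these upper bounds lay below the lower bound of the same gene at 12 h of PBITE-1, which was 4.84 for FOS, 4.95 for FOSB and 7.92 for ATF3. FOSB was tested only through its PBITE-1 samples, so for this gene the order was given by the filter and is no evidence of a difference. One sample with DMSO held 2 counts of FOS against 12 and 11 in the others, and without that sample (replicate 1) the value for FOS was -1.40 (adjusted p = 0.0286). Scaling moved the Dox values more than the PBITE-1 values. On library size only the median over all tested genes was 0.28 with Dox, and JUN was at 0.96, MAFF at 1.57 and MAFK at -0.35. JUND passed the p threshold on library size only (0.31, adjusted p = 6.15e-05) and with upper-quartile scaling (0.21, adjusted p = 0.00365).

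The difference between the 2 responses, that to 12 h of PBITE-1 minus that to Dox, was tested as an interaction over all 18 samples. It was called for 7 of the 9 members, all in the direction of a higher value with PBITE-1, where 13% of all tested genes were called higher and 15.9% lower. FOSB, tested only through its PBITE-1 samples, had to lie on that side, and 6 of the 8 other members were called. The difference was 9.51 (SE 1.08, limma adjusted p = 1.49e-10) for ATF3, 6.22 (SE 0.71) for FOS, 6.003 (SE 0.95) for FOSB, 4.83 (SE 0.31) for JUNB, 3.14 (SE 0.09) for JUND, 3.09 (SE 0.18) for JUN and 1.46 (SE 0.15) for FOSL2. For MAFF the difference was 0.31 (95% CI -0.40 to 1.02, limma adjusted p = 0.45). For MAFK it was 0.54 (SE 0.16, limma adjusted p = 0.00306), under the fold limit. The cell line and the agent differ between the 2 responses, the duration of Dox is not given in the labels, and these cannot be told apart here.

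**Figure D4:**
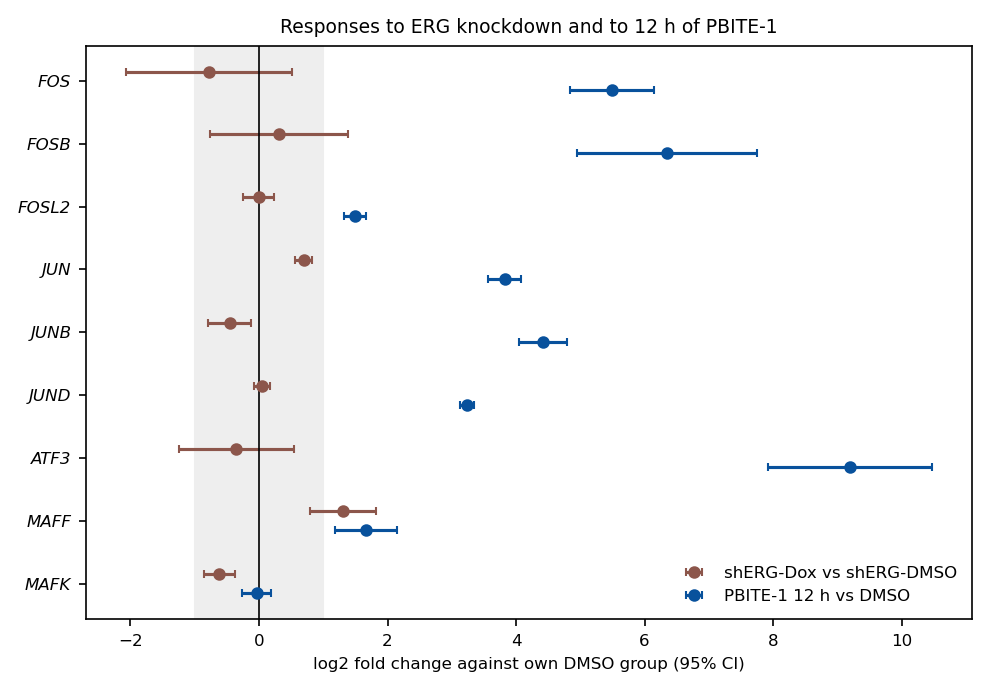
Log2 fold change (x axis, with 95% confidence interval from limma) of the 9 tested genes with Dox in VCaP-shERG cells (brown) and after 12 h of PBITE-1 in parental cells (blue), each against its own DMSO group, with the band from -1 to 1 shaded. MAFF overlaps between the 2 (1.31 and 1.66), and the FOS and JUN genes and ATF3 lie apart. FOSB was tested only through its PBITE-1 samples.

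The 2 DMSO groups were compared as well. Of the 9 tested members, 0 were called higher and 0 lower in VCaP-shERG cells with DMSO against parental cells with DMSO (1.19% and 5% of all tested genes). Past the p threshold but under the fold limit were FOSL2 at -0.73 (SE 0.11, limma adjusted p = 3.3e-07), JUND at -0.35 (SE 0.07, limma adjusted p = 3.23e-05) and JUN at 0.41 (SE 0.15, limma adjusted p = 0.0269). JUN was not past the p threshold without a filter on low counts (adjusted p = 0.301), or without replicate 1 (0.0575) or 3 (0.0629) of VCaP-shERG with DMSO or replicate 2 (0.0573) or 3 (0.132) of parental DMSO. The largest difference was that of FOSB, at 1.41 (95% CI -0.26 to 3.08, limma adjusted p = 0.165), and it was 0.27 without parental DMSO replicate 2 and 2.12 without replicate 1. FOS was at -0.36 (95% CI -1.40 to 0.69) and ATF3 at 0.37 (95% CI -1.36 to 2.10), intervals that leave a difference past the fold limit possible.

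Other bZIP genes and the genes up- and downstream of AP-1 were followed as lists. For every list, the shares of all tested genes called higher were 7.28%, 14.9% and 17.1% at the 3 times and 12% with Dox. The shares called lower were 2.99%, 8.86% and 15.4%, and 7.19% with Dox. Of 16 other immediate early genes, 14 were tested, but CCN2, EGR3, IER3 and NR4A3 passed the filter only through the PBITE-1 samples. Of the 10 others, 10 were called higher at 4 h and 9 at 8 and at 12 h, against 0 with Dox. Their median log2 fold change was 2.02, 1.93 and 2.42 at the 3 times and 0.16 with Dox. IER3 had 0 counts in every sample without PBITE-1. It held 10 to 17 counts at 12 h, at least 4.403-fold above 3 counts in a DMSO sample. NR4A3, a nuclear receptor, was at 4.57 (SE 0.65) and EGR3, a zinc finger factor, at 4.07 (SE 0.64) at 12 h, both from at most 8 counts per DMSO sample. With Dox, IER2 was at -0.69 (limma adjusted p = 1.04e-05), NR4A3 at 1.23 (adjusted p = 0.168) and EGR3 at -1.03 (adjusted p = 0.311).

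Of 16 tested genes of the other ATF, CREB, BATF and CEBP families, 5, 8 and 8 were called higher at 4, 8 and 12 h and 0, 1 and 1 lower, against 1 higher and 1 lower with Dox. CEBPB, a bZIP factor of acute phase and stress responses, went from 5.39 ± 0.322 CPM in DMSO to 57.6 ± 2.96 at 4 h and 125 ± 6.36 at 12 h (log2 fold change at 12 h 4.53, SE 0.12). DDIT3, the CHOP factor of the integrated stress response, was at 10.9 ± 2.28 and 184 ± 22.0 CPM (4.10, SE 0.12). JDP2, which binds TREs as a repressor with JUN, was at 2.10 ± 0.436 and 26.7 ± 0.383 CPM (3.65, SE 0.21), and with Dox its log2 fold change was 0.64 (limma adjusted p = 0.0116). CREB5, a relative of ATF2, rose in both experiments, by 4.04 (SE 0.38) with Dox, from 0.507 ± 0.139 to 8.67 ± 1.29 CPM. At 12 h of PBITE-1 it rose by 2.96 (SE 0.32), from 0.995 ± 0.0653 to 8.04 ± 2.18 CPM. CEBPD was lower with Dox by -1.05 (SE 0.31, limma adjusted p = 0.00444).

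Among 10 tested MAF and CNC genes, 3, 5 and 6 were called higher at the 3 times and 0, 0 and 1 lower, with 1 higher and 1 lower with Dox. At 12 h the large MAF genes MAFA and MAF were higher in log2 terms by 5.68 and 2.37, with SEs of 0.37 and 0.12. With Dox, BACH2, a repressor that pairs with small MAFs, was at 1.53 (SE 0.26), NFE2L3 at -1.24 (SE 0.11) and MAFA at 0.99 (limma adjusted p = 0.0235).

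Kinases and SRF partners that act on FOS and JUN were called higher in 2, 3 and 3 of 26 cases at 4, 8 and 12 h, where 7.28%, 14.9% and 17.1% of all tested genes were. They were called lower in 0, 1 and 6 cases, where 2.99%, 8.86% and 15.4% of all tested genes were, and with Dox 1 was higher and 0 lower. RPS6KA2, a kinase of the RSK family, was at 3.39 (SE 0.10) at 12 h and 0.91 (SE 0.13) with Dox. ELK3, a ternary complex factor, was at -2.26 (SE 0.22) at 12 h. MAPK10, a JNK gene, was at -1.72 (SE 0.35) at 12 h and at 1.36 (SE 0.24) with Dox. MAP2K3 was at -0.92 (SE 0.09) with Dox. The median over the list was 0.07, 0.18 and 0.21 at the 3 times.

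Of 30 genes commonly described as AP-1 targets, 16 were tested, of which AREG, CXCL8, HMOX1, MMP1, PLAU and SPHK1 passed the filter only through the PBITE-1 samples. Of the 10 others, 3, 3 and 4 were called higher and 0, 0 and 3 lower at 4, 8 and 12 h, and 1 higher and 2 lower with Dox. Their median was 0.06, 0.67 and 0.42 at the 3 times. Of all tested genes, 7.28%, 14.9% and 17.1% were called higher at these times and 2.99%, 8.86% and 15.4% lower. With Dox the shares were 12% and 7.19%. CXCL8, the chemokine interleukin-8, went from 5 to 12 counts per DMSO sample to 245 ± 4.70 CPM at 12 h (log2 fold change 8.95, SE 0.78). HMOX1, heme oxygenase, was at 5.94 (SE 0.74) at 12 h and 2.57 (SE 0.78) with Dox, from at most 3 counts in the samples with DMSO of either line. With Dox it held 4 to 14 counts against 0 to 2 in VCaP-shERG cells with DMSO, so this fold starts from below the floor. AREG, the growth factor amphiregulin, had 0 counts in every DMSO sample and reached 1.86 ± 0.576 CPM at 12 h, at least 9.42-fold above 3 counts in a DMSO sample. LAMB3, a laminin chain, was higher with Dox by 4.01 (SE 0.49), from 0.231 ± 0.0988 to 4.06 ± 0.803 CPM, and stayed at or below 6 counts in every PBITE-1 sample. PLAU, urokinase, had 0 counts in the VCaP-shERG samples with DMSO and 1 to 6 counts with Dox, a mean under the floor, and no fold is given.

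**Figure D5:**
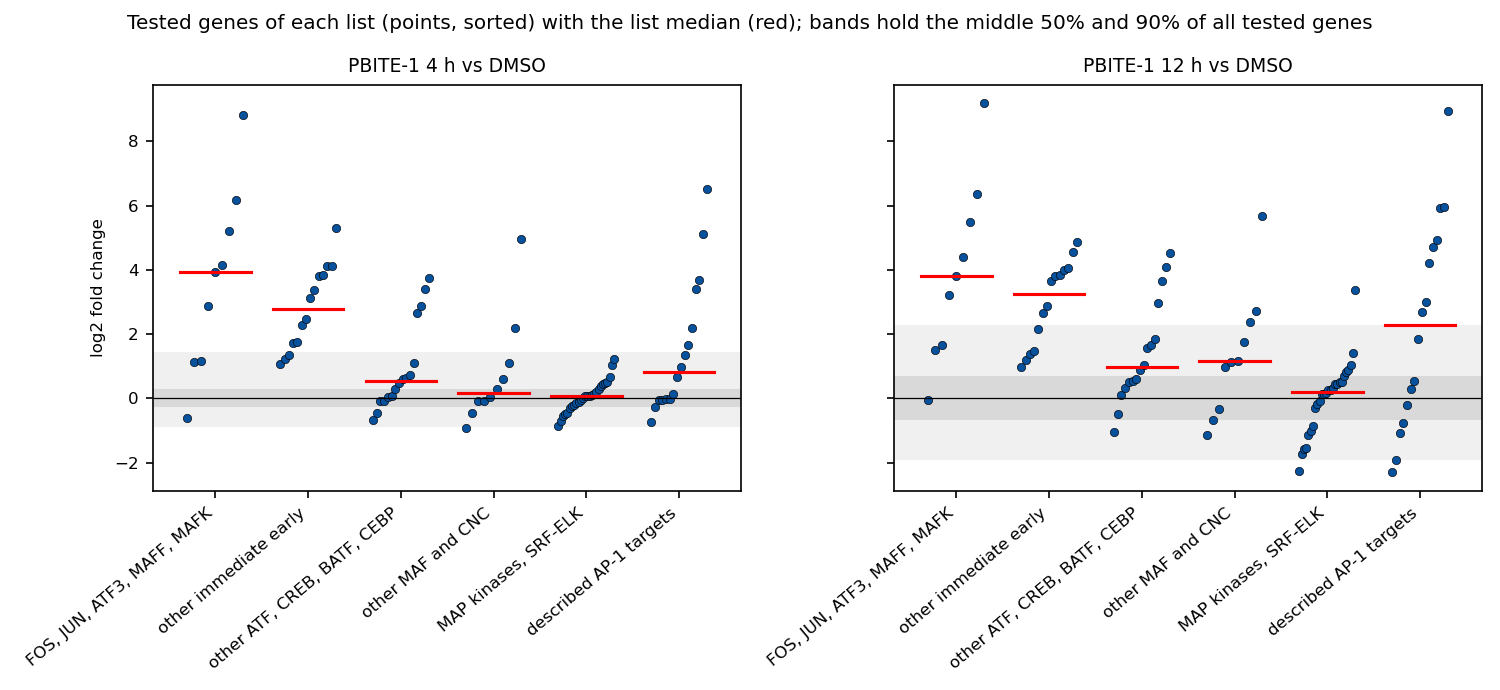
Log2 fold change (y axis) of each tested gene of the 6 lists (points, sorted within a list; red line, median) after 4 h (left) and 12 h (right) of PBITE-1, with grey bands for the middle 50% and 90% of all 14164 tested genes. The member list has medians of 3.94 and 3.83, the other immediate early genes of 2.80 and 3.25 and the MAP kinase list of 0.07 and 0.21. All tested genes are drawn, those that passed the filter only through PBITE-1 samples included.

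The genes most like FOS, JUN and ATF3 were sought by Pearson's r of log2 CPM over the 12 parental samples, among 11235 tested genes with a mean count of at least 50. These values are descriptions, since the 12 points fall into 4 groups, and both genes of a pair were measured in the same libraries. FOS was most like ATF4 (r = 0.996), KLF4 (0.996) and DNAJB1 (0.993), and JUN was most like NFKBIA (0.995), ENSG00000217275 (0.986) and the histone gene H2BC7 (0.986). ATF3 was most like TIPARP (0.997), PPP1R15A (0.996) and TNFAIP3 (0.994). Over all 18 samples the closest genes were NFKBIZ, SIK1 and CCNYL1 for FOS, H2BC7, DUSP10 and EGR1 for JUN, and IER5, TNFAIP3 and ERRFI1 for ATF3, with r between 0.967 and 0.993. FOSL1 was not tested and had no such list.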

How the data were processed

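RNA-seq was performed on 18 samples in 6 groups of 3, grouped by their titles. The authors deposited raw counts, a whole number for each gene and sample, and applied no normalization to them. The submitters' processing notes name STAR, featureCounts and hg38, while the paper's methods name Kallisto, and which of them made the table is not settled. The annotation and the use of strand are not given in the sources used here. Genes were matched to symbols by Ensembl identifier (22011 of 22034), and positions and exon lengths were taken from GENCODE 29 on GRCh38.

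Counts were filtered with filterByExpr over the 6 groups (14164 of 22034 genes kept), scaled by TMM (edgeR 4.0.16) and tested with voom, lmFit and eBayes (limma 3.58.1, R 4.3.3), with Benjamini-Hochberg adjustment over all tested genes. The 6 VCaP-shERG and the 12 parental samples were fitted separately. The difference between lines and the interaction were fitted over all 18 samples. Intervals are at 95%. The log2 CPM used for likeness had a prior count of 2. p-values measure the spread between the deposited samples. The procedure was tested on simulated data.

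All 10 members are named. From each other list, up to 3 genes called in any treatment comparison are named, by the largest absolute log2 fold change at 12 h of PBITE-1 and likewise with Dox, with cell type markers given by their summed level and their calls. One gene that this rule names is not reported here. HOOK2 and TMEM184A were named for their overlap with members. The members, lists and tests were chosen with earlier results of these data known.

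Alternatives were RLE, upper-quartile and library-size scaling, edgeR's quasi-likelihood test, DESeq2 1.42.0, other filters, thresholds and fits, sample quality weights, a replicate block and leaving out each sample. Pairs of replicates differed by more than sampling noise (chi-square per degree of freedom 1.70 to 4.96), so none was counted as a copy. Samples with the same replicate number did not deviate together (correlations between -0.035 and 0.041), so the numbers were not taken as pairs.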

Additional observations from a re-analysis of the deposited data

Results flagged for a closer look

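Some members changed in opposite directions, or by different amounts, between neighbouring times. JUN was lower at 8 h than at 4 h by -1.65 on the log2 scale (SE 0.07), in 3 of 3 samples against each sample at 4 h. FOS and FOSB were higher at 12 h than at 8 h, by 1.12 (SE 0.10) and 1.08 (SE 0.19), with no overlap between the samples.

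The response to 12 h of PBITE-1 differed from the response to Dox for 7 members, tested as an interaction with limma. The difference in log2 fold change was 9.51 for ATF3, 6.22 for FOS, 6.003 for FOSB, 4.83 for JUNB, 3.14 for JUND, 3.09 for JUN and 1.46 for FOSL2. FOSB was tested only through its PBITE-1 samples. The line and the agent differ together in this contrast and cannot be told apart.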

How the results depend on the processing

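The calls of JUN, JUNB, JUND, FOSL2 and MAFF at each time of PBITE-1, and of FOS, FOSB and ATF3 wherever these were tested, kept their direction and their adjusted p under 0.05 in every alternative run. FOSB was tested only through its PBITE-1 samples, so for this gene the calls against DMSO were given by the filter, and their stability is no evidence. MAFF at 4 h was under the fold limit without 4 h replicate 1 (0.90), so that its call was lost there. With at least 10 counts in every sample, FOS, FOSB and ATF3 were not tested, so that the members called higher were 5 at 4, 8 and 12 h, 0 from 8 to 12 h and 4 in the interaction. Without 1 sample at a time, the members called lower were 0 to 1 with Dox (1 without VCaP-shERG DMSO replicate 1, FOS) and 1 to 2 from 4 to 8 h (2 without 4 h replicate 1, JUN and FOSB). On the adjusted p alone, members higher and lower were 2 and 2 with Dox, where 4969 and 5005 of all 14164 tested genes were. They were 8 and 1 at 4 h (3741 and 3495 of all tested genes). From 4 to 8 h they were 5 and 3 (3783 and 3732), and from 8 to 12 h 5 and 0 (3931 and 4602). Between the lines they were 1 and 2 (3305 and 3301). With a 1.5-fold limit they were 2 and 1 with Dox (2800 and 2516 of all tested genes). By that limit, members lower were 1 at 4 h (1073), 2 from 4 to 8 h (1035) and 1 between the lines (1284).

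Values close to 0 changed sign without passing the test in any of these cases. FOSL2 with Dox was at 0.0019 with RLE, 0.16 with upper-quartile scaling, 0.26 on library size only, 0.00057 with DESeq2, 0.045 with the stricter filter and between -0.050 and 0.052 without 1 sample. MAFK between the lines was at 0.024 with RLE, 0.024 with DESeq2, 0.00091 without a filter and between -0.050 and 0.032 without 1 sample. Leaving out 1 sample gave -0.085 to 0.0049 for MAFK at 12 h, -0.19 to 0.023 for ATF3 from 4 to 8 h (the highest without 4 h replicate 1) and -0.043 to 0.11 for MAFF from 8 to 12 h. Between the lines it gave -0.71 to 0.27 for FOS, -0.16 to 0.16 for MAFF and -0.051 to 0.27 for JUNB. The cause was not tested.

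MAFF from 4 to 8 h (0.48, adjusted p = 0.038) was past the p threshold with limma and not with edgeR's test (adjusted p = 0.0692) or DESeq2 (adjusted p = 0.128), nor without a filter (0.085). Leaving out 1 sample gave 0.29 (adjusted p = 0.265, without 4 h replicate 2) to 0.75 (without 4 h replicate 1), and 4 such fits were not past the threshold. MAFK in the interaction was at 0.28 on library size only (adjusted p = 0.113). The replicate block changed no call of a member at the fold limit (8 higher at each time of PBITE-1, 1 with Dox), and moved MAFF from 4 to 8 h to 0.43 (adjusted p = 0.053).

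Over all tested genes, the adjusted p alone gave 4969 higher and 5005 lower with Dox, 3741 and 3495 at 4 h, 5081 and 5238 at 8 h, 5583 and 5586 at 12 h, 3783 and 3732 from 4 to 8 h, 3931 and 4602 from 8 to 12 h, 3305 and 3301 between the lines and 4714 and 4970 in the interaction. A 1.5-fold limit gave 2800 and 2516, 1693 and 1073, 3192 and 2635, 3745 and 3605, 1550 and 1035, 1418 and 2042, 562 and 1284, and 3046 and 3476 in the same order. The stricter filter gave 915 higher with Dox, 554 and 213 at 4 h, 1354 and 788 at 8 h, 268 and 149 from 4 to 8 h, 276 and 530 from 8 to 12 h, and 56 and 330 between the lines. With Dox, 506 genes were lower on library size only, against 1019 with TMM, and between the lines 274 were higher without a filter, against 168. Depth limits FOSL1 in all groups and FOS, FOSB and ATF3 in groups without PBITE-1.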
